A study of Rattus norvegicus with 2 samples.

Results

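Scavenger receptors are cell-surface and lysosomal proteins that bind modified lipoproteins, dying cells, haemoglobin complexes and microbial ligands. A set of 9 rat genes of this kind was examined: Olr1, Msr1, Cd36, Scarb1, Scarb2, Cd163, Stab1, Mrc1 and Marco. The list was chosen by the Olr1 difference between the aneurysm and control arrays, one of the largest in these data, so the Olr1 value below describes what chose it and supports nothing by itself. Of the 9 genes, 8 were matched to a probe, by 10 probes in all, among 15159 genes with a matched probe on the array. Stab1, a receptor of macrophages and sinusoidal endothelium, had no matched probe and is not analysed here. Marco, a class A receptor of tissue macrophages, was not well above background in either library, so 7 genes had a difference, and all 7 were well above background on both arrays.

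The study compared 2 libraries from rat intracranial arteries on one-colour Agilent arrays. The control library was made from the wall of intracranial arteries of rats that received no treatment (1 array), and the aneurysm library from a lesion taken 3 weeks after the aneurysm was induced (1 array). The labels state neither how aneurysms were induced nor the rats' strain, sex and age, nor how many animals gave each RNA. Because each group has 1 array, differences could not be tested, and each value describes these 2 libraries. In bulk RNA, fewer cells of a type and less RNA per cell cannot be told apart.

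Olr1 encodes LOX-1, a C-type lectin-like receptor that takes up oxidised LDL and is known from endothelium, smooth muscle and macrophages of diseased arteries. Msr1 and Marco are class A receptors of macrophages, which bind modified LDL and polyanions. Cd36, Scarb1 and Scarb2 form the class B family: CD36 carries long-chain fatty acids and oxidised LDL, SR-BI takes up cholesterol esters from HDL, and LIMP-2, the product of Scarb2, is a lysosomal membrane protein. Cd163 takes up haemoglobin bound to haptoglobin, and Mrc1, the mannose receptor, clears glycoproteins; both mark resident macrophages of vessel walls and brain borders.

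Promoter windows are shown for the pair of genes with the largest differences, Olr1 and Cd163, each as the letters before an annotated transcript start. Each is the 250 bases before the transcript start in RefSeq's table of build GRCr8, 5′ to 3′ on the gene's strand, with matches to TGANTCA, the letters bound by AP-1 factors, in capitals. The Olr1 window lies at chr4:164634548-164634797 on the minus strand, inside the annotated span of the gene. The Cd163 window lies at chr4:158770524-158770773 on the plus strand, partly inside its gene's span.
Olr1: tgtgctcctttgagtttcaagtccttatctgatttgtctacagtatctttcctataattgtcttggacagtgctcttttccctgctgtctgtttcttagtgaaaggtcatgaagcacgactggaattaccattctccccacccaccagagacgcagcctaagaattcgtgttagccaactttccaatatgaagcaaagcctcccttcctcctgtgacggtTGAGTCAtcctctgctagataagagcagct
Cd163: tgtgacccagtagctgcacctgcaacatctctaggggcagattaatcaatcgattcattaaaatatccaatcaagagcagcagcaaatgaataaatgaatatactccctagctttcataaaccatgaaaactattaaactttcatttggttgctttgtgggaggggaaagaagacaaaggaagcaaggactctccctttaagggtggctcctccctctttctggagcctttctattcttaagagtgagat

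The table held windows for 7 of the 9 genes (not Msr1 and Scarb1), and the letters searched, on both strands, were chosen with these sequences in view. TGANTCA was found in 1 of the 7 windows, that of Olr1, where it spans bases 30 to 24 before the start, and in 6.34% of all 33469 windows of the same length. AGATAA, the letters of GATA factors, was also found in Olr1 alone among the 7, at 2 places, and in 10.3% of all windows. GAGGAA, the letters of PU.1, a macrophage factor, was found in the windows of Olr1, Cd36, Marco, Stab1 and Mrc1 and in 23.3% of all. TATAAA was found in those of Cd36 and Marco and in 12.9% of all. TTCNNNGAA (STAT factors, 7.67% of all) and CACGTG (E-box, 5.59% of all) were found in 0 of the 7. A match is a run of letters, and binding was not measured.

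Values below are processed spot intensities, or differences on the log2 scale, aneurysm minus control, after each array was scaled to its own 75th percentile. The figure after ± is a spot error. It is computed from how far repeat spots of a probe differ on the same array and holds no variation between animals. The 75th percentile was 621 on the control array and 801 on the aneurysm array, so scaling lowers every aneurysm value relative to its control value, and a scaled difference is smaller than the raw one for a gene that is higher in the aneurysm library. No spot was saturated, and 74.7% of control and 76.4% of aneurysm spots were well above background.

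Olr1 had the largest difference of the set. Its probe gave 37.3 and 40.3 at its 2 spots in the control library and 255 and 253 in the aneurysm library. All 4 spots were well above background. After scaling, Olr1 was 5.07-fold higher in the aneurysm library (log2 2.34 ± 0.25), with 2.41 and 2.28 at the separate spots. The control spots were dim: 661 of the 2976 genes with the lowest control signal, among which Olr1 falls, had only a bound. Of 11902 genes with a difference, only Ptger2 was above it, by a bound against a control signal not well above background, and of 11202 genes well above background on both arrays 0 were above it. With normexp background correction, whose offset of 50 shrinks differences of dim genes by construction, Olr1 was at 1.46, still above 2-fold, but 3 genes well above background on both arrays were then above it, Cilp and Tac1 among them. With normexp on the median spot signals, an alternative added after the data had been seen, 4 such genes were above it.

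**Figure D1:**
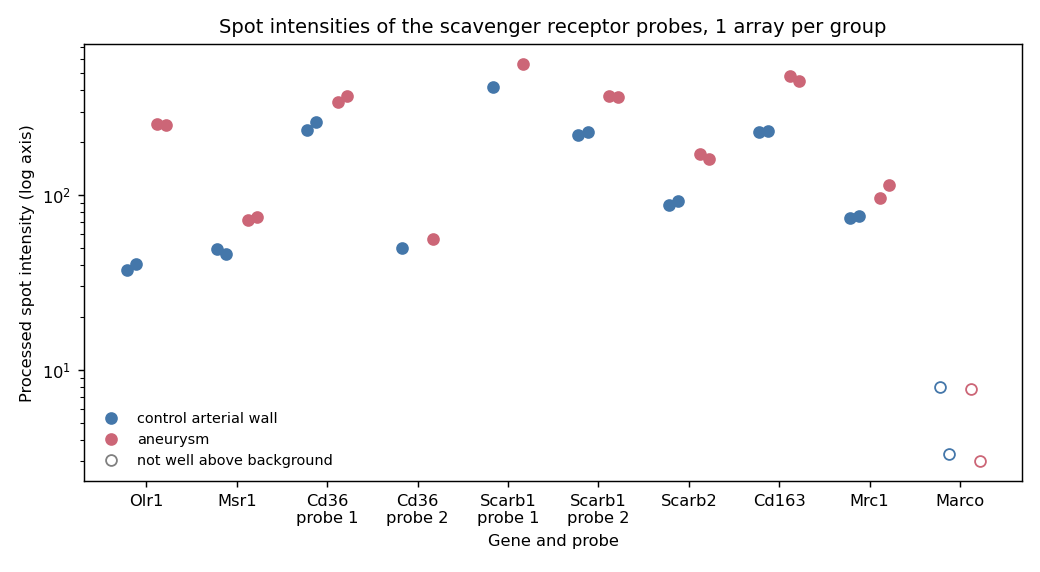
Processed intensity of every spot of the 10 matched probes (log axis), control arterial wall in blue and aneurysm in red, 1 array each; open circles are spots not well above background. The Olr1 spots lie at 37.3 and 40.3 in the control and at 253 and 255 in the aneurysm library, while Marco has open circles only.

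Of the 7 measured genes, 1 was higher by 2-fold or more, Olr1, where 0.882% of all genes were, and 0 were lower by as much, where 3.91% of all genes were (4.79% in either direction). Among the 11202 genes without a bound, to which all 7 belong, the shares were 0.455% higher and 2.11% lower. Among the 2976 genes dimmest in the control, they were 2.76% and 8.47%. Since the Olr1 difference chose the list, nothing is read from its count. All 7 differences were above 0, as were 50.2% of all genes, and their median was 0.25 against 0.001 over all genes. Without Olr1 the other 6 had a median of 0.19 and ran from 0.07 to 0.65. For all genes the 25th and 75th percentiles were -0.21 and 0.19. Of all calls, 18.4% were higher in the aneurysm library, a share that was 29.1% with quantile normalization, 48.4% with spike-in scaling and 6.99% with normexp.

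**Figure D2:**
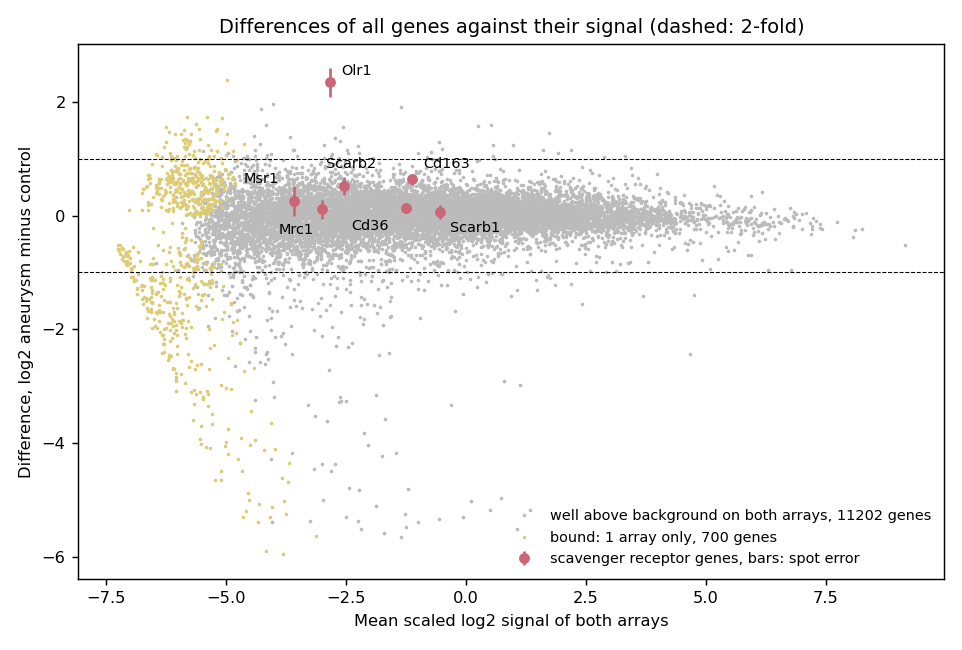
Difference (log2 aneurysm minus control) of each gene against its mean scaled log2 signal on both arrays; grey points are well above background on both arrays, yellow points are bounds from genes well above background on 1 array, and red points with bars are the 7 scavenger receptor genes with their spot errors. Olr1 lies at 2.34, above the dashed 2-fold line, and the other 6 lie between 0.07 and 0.65.

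The macrophage receptor Cd163 had the next largest difference. Before scaling, its spots were at 229 and 231 in the control library and at 479 and 450.5 in the aneurysm library. It was 1.57-fold higher (log2 0.65 ± 0.09), a difference that 3.15% of all genes exceeded. At 1.5-fold, 2 of the 7 genes, Olr1 and Cd163, were higher, where 4.25% of all genes were. The value was 0.54 with normexp and 0.96 with spike-in scaling, so it stayed on the same side of 0 and under 2-fold.

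The other macrophage receptors differed less. Mrc1 gave 73.6 and 76.3 in the control and 95.9 and 114 in the aneurysm library, and its scaled difference of 0.11 ± 0.16 was within the spot error. Msr1 gave 49.2 and 46.1 against 72.0 and 74.4, and its scaled difference of 0.25 ± 0.26 was likewise within the spot error. The raw spots of both genes did not overlap between the libraries, yet little was left after scaling for the brighter aneurysm array. With normexp Mrc1 was at -0.03 and Msr1 at 0.0012, and with normexp on the median spot signals both were below 0 (-0.05 and -0.11). Marco had 8.0 and 3.3 in the control and 7.8 and 3.0 in the aneurysm library, near the dimmest probes that were well above background (7.3 and 6.9), and no fold is given.

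Of the class B genes, Scarb2 had the largest difference, which was above its error. Its spots were at 87.8 and 92.2 in the control library and at 172 and 160 in the aneurysm library. The scaled difference was 0.51 ± 0.16, or 1.43-fold, with 0.29 under normexp and 0.82 under spike-in scaling. Cd36 and Scarb1 each had 2 probes, which did not give the same value. The brighter Cd36 probe was at 237 and 261 in the control and 338 and 367 in the aneurysm library (0.14 ± 0.09). The dimmer one, with 1 spot per array, was at 49.5 and 55.8 and had the opposite sign (-0.20 ± 0.38). The brighter Scarb1 probe, also with 1 spot per array, was at 416 and 562 (0.07 ± 0.12). Its other probe was at 220 and 230 in the control and 367 and 363 in the aneurysm library (0.33 ± 0.09). The mean over both probes was -0.03 for Cd36 and 0.20 for Scarb1, so no direction is given for Cd36. Disagreement of this size is common on the array: across 1906 genes represented by more than 1 such probe, the median range between probes was 0.23, and 41.1% had probes of opposite sign.

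In order of their differences the 7 genes were Olr1, Cd163, Scarb2, Msr1, Cd36, Mrc1 and Scarb1. The gap between Olr1 and Cd163 was 1.69, against a combined spot error of 0.26. Every later neighbouring pair lay closer together than its combined spot error, from 0.13 against 0.18 for Cd163 and Scarb2 to 0.02 against 0.19 for Cd36 and Mrc1. In all, 4 of the 7 differences were larger than their own spot error (Olr1, Cd163, Scarb2 and Cd36). Olr1 was highest and Cd163 next under each of the 11 alternatives of background, scaling, filter and probe choice. Several of these could not change the order of Olr1 and Cd163. Scaling an array by a constant shifts every gene alike, and the filter, probe and outlier settings left both values unchanged.

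**Figure D3:**
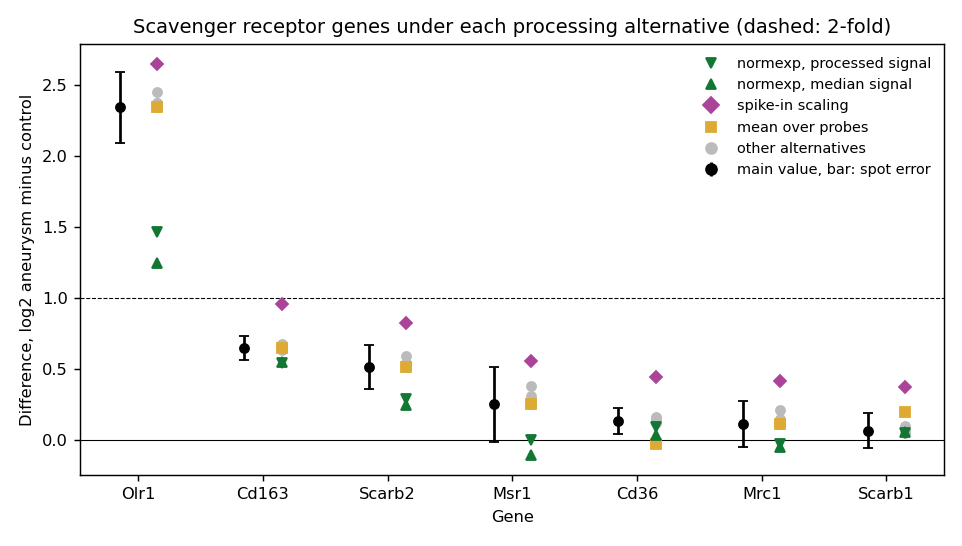
Difference (log2 aneurysm minus control) of each of the 7 genes as reported (black, bar: spot error) and under 11 processing alternatives (coloured and grey symbols). Olr1 runs from 1.25 to 2.65 and stays above the dashed 2-fold line, while Msr1, Cd36 and Mrc1 cross 0.

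The genes with a difference most like that of Olr1, among named genes well above background on both arrays, all lay below it as scaled here. They included the cartilage matrix gene Cilp (1.91 ± 0.13), Ibsp, which encodes bone sialoprotein (1.87 ± 0.48), and Tac1, the substance P precursor (1.59 ± 0.07). Likeness here is nearness of the difference, over 2 arrays. The order turned with normexp, where Cilp was at 1.58 and Tac1 at 1.52, above Olr1 at 1.46, and Ibsp at 0.64.

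Other receptors for the same kinds of ligand, 25 listed of which 17 had a difference, held 0 genes at 2-fold in either direction, with 10 higher, 7 lower and a median of 0.10 (-0.04 with normexp). The largest values were those of Lgals3, galectin-3, which binds glycated and oxidised ligands (0.81 ± 0.06), and the endotoxin receptor Tlr4 (0.54 ± 0.15). Ager, the receptor for glycated proteins, was at -0.46 ± 0.15 and Pla2r1, a phospholipase A2 receptor, at 0.37 ± 0.49 (-0.07 with normexp). The lysosomal marker Cd68, which also counts as a scavenger receptor, was at -0.05 ± 0.06.

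The C-type lectin-like receptors, the structural family of LOX-1, held 14 genes with a difference of 22 listed, 10 higher and 4 lower, with a median of 0.15 (-0.01 with normexp). Of these, 2 values were bounds, and none of the other 12 was at 2-fold. Thbd, thrombomodulin of endothelium, was at 0.45 ± 0.06, Clec4a3 at 0.36 ± 0.08 and the macrophage galactose lectin Clec10a at 0.33 ± 0.03. The dendritic cell receptor Clec9a was well above background in the aneurysm library only and at least 1.74-fold higher there. Clec7a, the beta-glucan receptor dectin-1, was at 0.07 ± 0.26.

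Of 34 genes listed for LOX-1 signalling and for cutting the receptor from the cell surface, 26 had a difference, with 16 higher, 10 lower and a median of 0.06. Ccl2, a monocyte chemoattractant that LOX-1 signalling is known to induce, was the 1 gene at 2-fold, at 1.11 ± 0.08 (0.77 with normexp). Nfkbia, the NF-kappaB inhibitor, was at 0.59 ± 0.06 and the endothelial nitric oxide synthase Nos3 at 0.57 ± 0.03. The protease Bace1, which can cut LOX-1, was at -0.60 ± 0.20, and the sheddase Adam17 at -0.01 ± 0.18. The phagocyte oxidase subunit Cybb was at -0.07 ± 0.16, and the cytokines Tnf and Il1b, which induce Olr1 in cultured cells, were at -0.16 ± 0.09 and -0.29 ± 0.09.

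Lipid loading and efflux genes, through which macrophages handle the cholesterol that scavenger receptors bring in, had 11 of 21 higher and a median of 0.05 (-0.01 with normexp). Apoc1, an apolipoprotein that liver also makes in quantity, was the 1 gene at 2-fold, at -2.91 ± 0.03. Scd, a fatty acid desaturase, was at -0.44 ± 0.09, and Lpcat3, a phospholipid acyltransferase, at 0.38 ± 0.07. Pltp, the phospholipid transfer protein, was at 0.30 ± 0.06, the efflux transporter Abca1 at -0.07 ± 0.09 and Abcg1 at 0.07 ± 0.06.

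The haemoglobin and haem list, the pathway of Cd163, included 4 higher and 11 lower of 15, with the median at -0.18 (spike-in scaling: 0.13). The 3 genes lower by 2-fold or more were Hp, Hpx and Lcn2. Hp, the haptoglobin that Cd163 recognises, was at -5.01 ± 0.08, and Hpx, the haem carrier haemopexin, at -3.83 ± 0.19. Lcn2, a siderophore-binding protein, was at -2.03 ± 0.28 (-0.98 with normexp on the median signals). All 3 are also liver products. Slc11a1, an iron and manganese transporter of macrophage lysosomes, was at 0.91 ± 0.17, and Hmox1, haem oxygenase-1, at 0.46 ± 0.05. In the lysosomal list around Scarb2, 9 of 15 were higher, 0 at 2-fold, and the median was 0.18. In it the cathepsin Ctsl was at 0.49 ± 0.05, the hexosaminidase subunit Hexa at 0.42 ± 0.06, Lamp2 at 0.33 ± 0.08 and Lamp1 at 0.32 ± 0.06.

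**Figure D4:**
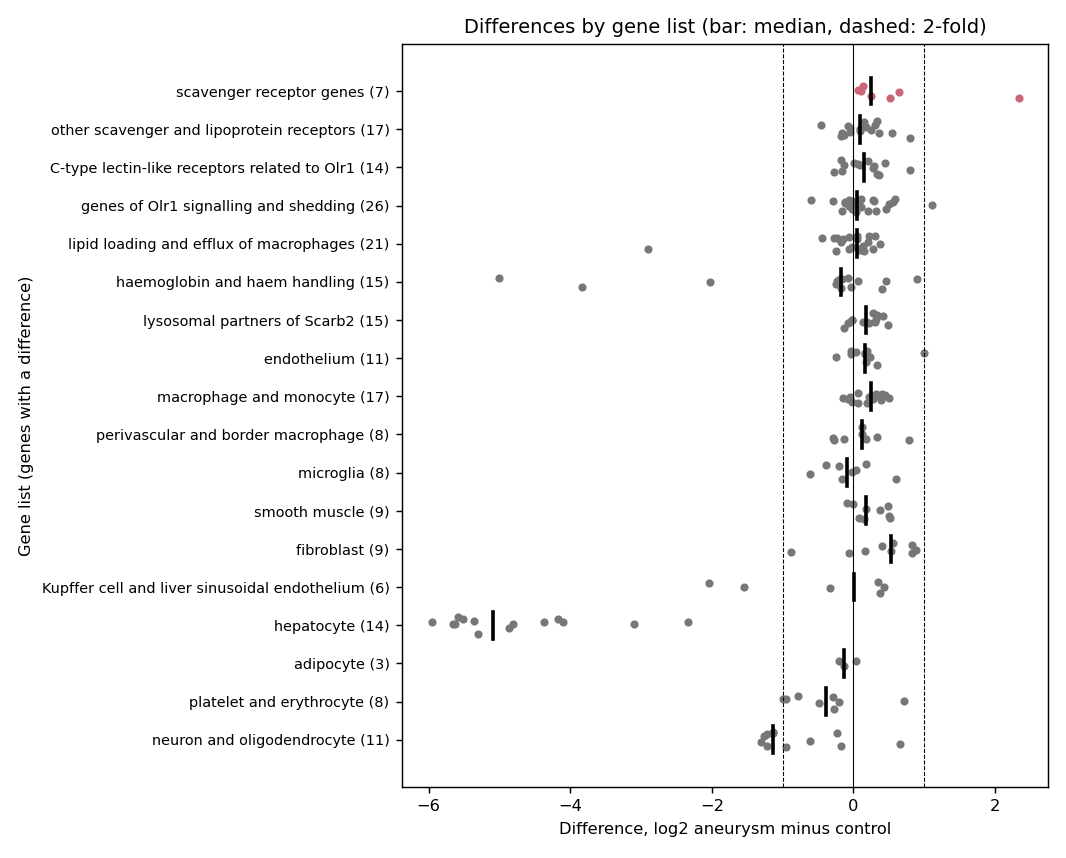
Differences (log2 aneurysm minus control) of the genes of each list, 1 point per gene, with the list median as a black bar and the number of genes with a difference in brackets; dashed lines mark 2-fold. The scavenger receptor genes (red) have a median of 0.25 with Olr1 at 2.34, the macrophage list a median of 0.25 and the hepatocyte list a median of -5.09.

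Of 17 macrophage and monocyte markers with a difference, of 18 listed, 13 were higher in the aneurysm library and 4 lower, with 0 at 2-fold and a median of 0.25, beside 0.65 for Cd163, 0.25 for Msr1 and 0.11 for Mrc1. The log2 of their summed scaled signal was 6.85 (control) and 7.02 (aneurysm). C1qc was at 0.51 ± 0.06, Itgam at 0.45 ± 0.18, the leukocyte marker Ptprc at 0.41 ± 0.04, Adgre1 at 0.39 ± 0.07 and Csf1r at 0.27 ± 0.07. The 4 lower markers were Spi1 (-0.15 ± 0.27), Laptm5 (-0.08 ± 0.05), Cd68 (-0.05 ± 0.06) and Tyrobp (-0.01 ± 0.05). The perivascular macrophage list had 5 of 8 higher, a median of 0.12 and a summed signal of 4.13 and 4.03. In it Lyve1, a hyaluronan receptor, was at 0.78 ± 0.09 and Ccl24 at -0.28 ± 0.05. Of 8 microglia markers with a difference, 3 were higher and 5 lower, with a median of -0.09 (spike-in scaling: 0.21). Among them Cx3cr1 was at -0.61 ± 0.06 and Tmem119 at 0.60 ± 0.08. The part of macrophage number in the Cd163 and Msr1 values was not tested.

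Endothelial markers, for a cell type from which LOX-1 is known, had 8 of 11 higher, 0 at 2-fold and a median of 0.17. Their summed signal was 4.24 (control) and 4.38 (aneurysm). Eng was at 0.99 ± 0.08, Pecam1 at 0.33 ± 0.06 and Cdh5 at -0.24 ± 0.09, while Vwf had no matched probe. The smooth muscle list had 7 of 9 higher, a median of 0.18 and a summed signal of 7.00 and 7.23, and its defining genes Acta2, Myh11 and Tagln were well above background in both libraries, and these are the markers checked for the labelled artery wall. No list of vessel wall cells had a member as far apart between the libraries as Olr1. Since Olr1 was chosen for its large difference, nothing is read from this comparison. The fibroblast list had the highest median, 0.53, with Lum at 0.88 ± 0.11, Pi16 at 0.83 ± 0.08, Mfap4 at 0.82 ± 0.06 and Dpep1 at -0.88 ± 0.15. In the smooth muscle list Actg2 was at 0.52 ± 0.07, Cnn1 at 0.51 ± 0.08, Des at 0.49 ± 0.06 and Lmod1 at 0.37 ± 0.11.

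Hepatocyte markers and most neuron and oligodendrocyte markers were higher in the control library, and liver expresses several of the receptors studied. All 14 hepatocyte markers with a difference, 7 of them bounds, were lower by 2-fold or more in the aneurysm library (13 with normexp), with a median of -5.09 (-3.30 with normexp) and a summed signal of 4.77 (control) and -0.48 (aneurysm); Alb was at -5.52 ± 0.07. Hepatocytes or liver endothelium express Scarb1 and Cd36. The brighter and dimmer probes were at 0.07 ± 0.12 and 0.33 ± 0.09 for Scarb1. For Cd36 they were at 0.14 ± 0.09 and -0.20 ± 0.38, so no direction is given for it. Of 12 markers of Kupffer cells and liver sinusoids, 6 had a difference, 3 higher and 3 lower, with a median of 0.0063 (-0.10 with normexp), and 2 were lower by 2-fold or more. Clec4f, the Kupffer cell lectin, was at -2.04 ± 0.18, and Vsig4 was at least 2.92-fold higher in the control library. Both lost the 2-fold call with normexp, at -0.87 and -0.71. The 3 higher markers were Fcgr2b (0.43 ± 0.03), Fcna (0.38 ± 0.14) and Gpr182 (0.34 ± 0.18). The summed signal of this list was 0.40 (control) and 0.70 (aneurysm). This sum mainly follows Fcgr2b, the brightest gene of the list, at -0.19 (control) and 0.23 (aneurysm). Clec4f, at -3.86 (control) and -5.89 (aneurysm), adds little to it. Marco, which Kupffer cells also express, was not well above background in either. Stab2, Clec4g and Timd4 had no matched probe. The neuron and oligodendrocyte list had 10 of 11 lower, 6 of them at least 2-fold (0 with spike-in scaling), and a median of -1.13, with Mobp at -1.30 ± 0.06. The platelet and erythrocyte list, relevant because platelets carry CD36, had 7 of 8 lower and a median of -0.39. With spike-in scaling 4 of 8 were higher and the median was -0.08. The lowest values were those of erythrocyte genes: Alas2, then Hba-a1 (-0.95 ± 0.05), Hbb (-0.78 ± 0.05) and Slc4a1 (-0.49 ± 0.29). Of the platelet genes, Gp1bb was at -0.29 ± 0.06, Pf4 at -0.27 ± 0.04 and Gp9 at -0.21 ± 0.39. Itgb3, a bound, was at 0.71. Of the adipocyte list, 3 genes had a difference (median -0.14, and 0.17 with spike-in scaling), and its defining genes Adipoq and Lep were not well above background. The part of liver, brain or blood RNA in the member values was not tested.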

How the data were processed

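Per the file headers, the authors used Agilent's Feature Extraction, version 10.10.1.1, and deposited 1 scanner file per array, from Cy3-labelled total RNA of the control arterial wall (1 array) and the aneurysm (1 array). The deposited values are processed spot intensities on a linear scale and flags of each spot; how background was subtracted is not given in the sources used. Both arrays lay on 1 slide in 1 scan, per the file headers.

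Each array's intensities were divided by their 75th percentile (58717 non-control spots) and put on the log2 scale. Outlier spots were left out and spots of a probe averaged. A probe counted as well above background when 0.5 or more of its spots were marked so. Accessions were matched without version to a RefSeq table (GRCr8, names only): 18006 of 30367 probes matched 1 gene. Olr1 was matched as the official symbol, since an olfactory receptor gene carries it as a synonym. The array was designed on rn4. Each gene is represented by the brightest of its probes that passed on 1 or both arrays. Where 1 array passed (700 genes), the difference is a bound: the dim side is set to its own value or the array's lowest passing value, whichever is higher. The spot error pools repeat spots over 20 signal bins. The calls are descriptive, at 2-fold. The code was tested on simulated arrays.

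The genes, lists and alternatives were chosen with earlier results of these data known. Named genes are all 9 receptors, up to 4 of largest difference per list, set markers, and the 4 nearest to Olr1 on either side. Others were named for their role, or to show both directions of a list, after their values were seen. A gene among the nearest to Olr1 and a gene of the lysosomal list are not reported here. Alternatives were 12 planned settings and 1 added one (normexp on median signals; the planned mean signal column was not used here). limma 3.58.1, R 4.3.3, Python 3.11.15 and statsmodels 0.14.6 were used.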

Additional observations from a re-analysis of the deposited data

How the results depend on the processing

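No replicate could be left out and no paired analysis was possible because each group has 1 array. Of 11 settings of background, scaling, filter and probe choice, 8 left Olr1 within its spot error of 2.34. Of these, the filter, probe and outlier settings could not move Olr1, which has 1 probe, no outlier spot and passed on both arrays. In the other 3 settings Olr1 was at 1.46 (normexp on the processed signal), 1.25 (normexp on median spot and background signals) and 2.65 (spike-in scaling). Spike-in scaling moved the median of all genes to 0.31 and so shifts every gene alike. Under the same 3 settings the median of the 7 receptor genes was 0.089, 0.057 and 0.56. With a 1.5-fold threshold 2 of these genes were higher in place of 1. Of all genes, 105 were at least 2-fold higher; this count was 16 and 14 with the normexp settings, 165 with quantile normalization, 311 with spike-in scaling, 51 for genes well above background on both arrays, 183 with no filter on dim probes, 506 at 1.5-fold and 2 at 4-fold. The count of lower genes, 465, was 213 and 193 with normexp, 237 well above background on both arrays, 756 with no filter, 1003 at 1.5-fold and 178 at 4-fold. The number of genes passing the filters and the thresholds set these counts by construction; the cause of the change with quantile normalization was not tested. Among the receptor genes only Olr1 was called at 2-fold, and its sign held in all 11 settings. Msr1 and Cd36 were each below 0 in 1 of these settings and Mrc1 in 2. Dim signal limits Olr1, Msr1 and Mrc1 most: their highest control spots were at 40.3, 49.2 and 76.3.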

Other observations

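Olr1 lies in a cluster of C-type lectin-like receptor genes, and the protein-coding genes next to it in the GRCr8 annotation were looked up, 8 on each side, chosen after the Olr1 value had been seen. Of these 16 neighbours 15 had a matched probe, and 8 were well above background on both arrays, 3 higher and 5 lower in the aneurysm library, with 0 at 2-fold. On one side Clec7a was at 0.07 ± 0.26, Clec1a at 0.21 ± 0.26, Clec12b at -0.18 ± 0.39 and Clec12a, an inhibitory receptor of myeloid cells, at 0.10 ± 0.06. Clec9a, on the same side, passed the background limit in the aneurysm library only and had a lower bound of 0.80, which leaves unknown whether it reached 2-fold. On the other side Tmem52b was at -0.18 ± 0.74, the autophagy gene Gabarapl1 at -0.19 ± 0.05, the NK cell receptor Klrk1 at -0.16 ± 0.09 and Klrc3 at -0.55 ± 0.39. Clec1b, Klre1, Klrd1, Klrc2, Klrc1 and Clec2ml1 were not well above background in either library, and Chtopl1 had no matched probe.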
